A study of Rattus norvegicus with 12 samples.

Results

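Expression of 39 genes of DNA replication and of entry into S phase was examined in rat liver cells exposed long-term to PFOA (perfluorooctanoic acid), an industrial fluorinated surfactant. The genes form a named list, matched to probe sets whose platform annotation gives exactly 1 symbol, and their measured values did not enter the rule. All 39 were found among the 22093 genes of the table, each with 1 such probe set. TRL1215 is an epithelial cell line from rat liver, and it was passaged weekly in medium with serum. The control group was a passage-matched culture without PFOA, and the groups T10, T50 and T100 received fresh PFOA at 10, 50 and 100 µM for up to 38 weeks. Each group has 3 arrays, made from 100 ng of total RNA each, and all groups derive from the 1 cell line. The sources used here do not say whether the 3 samples of a group came from separate long-term cultures, so the p-values measure only the spread between these samples, which may be technical.

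Replication starts from origins that are licensed in G1, when the origin recognition complex, with Cdc6 and Cdt1, loads the MCM helicase onto DNA. At the start of S phase, kinases, Cdc45 and the GINS complex switch that helicase on, and primase lays down the RNA primers from which the DNA polymerases extend. Many of these genes are transcribed by E2F factors once cyclin E and CDK2 have helped to inactivate the retinoblastoma protein, which makes their mRNAs common markers of proliferating cells.

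The values are the deposited log2 values, 1 per probe set and array. They are compared here only within a probe set, because brightness also depends on the probes. Background was set for each group at the 95th percentile of 1153 negative-control probe sets, and a gene passed it by its group mean. The limit lay at 5.42 (control), 5.77 (T10), 5.52 (T50) and 5.65 (T100). Of all genes, 20.7% were above background in at least 1 group. Of the 39 genes, 25 were above background in all 4 groups. Pold1 and Rfc3 were above it in control and T50, and Rfc5 in T50. The other 11 were below it in every group: Orc1, Orc6, Cdt1, Cdc45, Gins1, Gins2, Gins3, Rfc4, Fen1, Rpa3 and E2f1. No fold change is given by name for those 11, and the counts and medians over all 39 genes include their differences. The arrays also differed in the spread of their values, since the 95th percentile over genes averaged 9.57 for control and for T50, 9.42 for T10 and 9.66 for T100. Results are therefore given on the deposited values and after quantile normalization, which forces all arrays to 1 distribution. Of the markers fixed for other cell types, 0 of 9 measured for hepatocytes and 0 of 7 for macrophages and leukocytes were above background, as were 1 of 7 endothelial markers (Tek). Of 7 markers for liver epithelial and biliary cells, which should mark this line, 1 was above background (Krt8), while Krt18, Krt7, Krt19, Epcam, Cdh1 and Sox9 were not. Of 10 stellate and fibroblast markers 4 were above it (Col1a1, Col1a2, Col3a1 and Acta2), while Dcn, Lum, Pdgfrb, Lrat, Des and Thy1 were not.

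The rule used gene names alone, so the promoters were described separately. RefSeq promoters of the rat build GRCr8 were matched for 32 of the 39 genes. Those of Mcm4, Orc1, E2f1, Rrm2, Rpa3, Ccne2 and Cdc6 were not matched. In the 250 bases before the annotated start, both strands were searched for 4 words of 8 letters written after the E2F site (TTTGGCGC, TTTCGCGC, TTTCCCGC and TTTGCCGC). At least 1 of these words was found in 10 of the 32 promoters, or 31.2%, against 580 of all 33469 promoters in the RefSeq table, or 1.73%. They were Mcm2, Mcm5, Mcm6, Mcm7, Gins1, Gins3, Pola1, Tyms, Chek1 and Slbp. Thus 4 of the 5 MCM helicase genes with a promoter held one, and 0 of 5 clamp and clamp loader genes did. Related gene lists described further on had similar shares. The E2F words were found in 8 of 30 promoters of further replication genes (26.7%). For nucleotide supply and chromatin assembly it was 5 of 16 (31.2%), and for G1/S regulators 4 of 14 (28.6%). The share was therefore not particular to the 39 genes. The word CCAAT, the core of an NF-Y site, was found in 18 of 32 promoters (56.2%) against 34% of all promoters. TTTGAA, written after the cell cycle homology region of genes that peak in G2 and M phase, was found in 2 (6.25%) against 16.2% of all. A match describes the letters and does not show that a factor binds there. The E2F words can overlap each other, since TTTCGCGCGAAA holds 1 on each strand. Of the 10 genes with an E2F word, 0 were called against control on the deposited values in the tests described further on. Of all genes, 0.869% were called at T10, 1.31% at T50 and 1.46% at T100, so this count says nothing about the words. After quantile normalization Tyms, 1 of the 10, was called at T50 and T100.

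**Figure D1:**
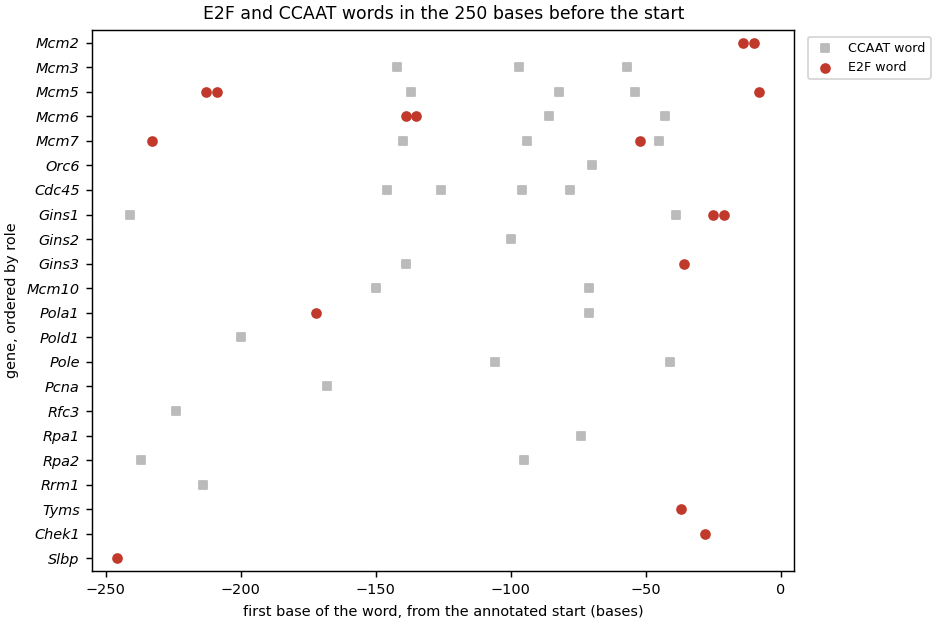
Position of E2F words (red circles) and CCAAT words (grey squares) in the 250 bases before the annotated start, with distance from the start in bases on the x axis and genes ordered by role on the y axis. Only the genes with at least 1 word are drawn. Mcm5, Mcm6, Mcm7, Gins1, Gins3 and Pola1 hold words of both kinds. Mcm2, Mcm5, Mcm7, Gins1, Gins3, Tyms and Chek1 hold an E2F word in the last 60 bases before the start.

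Stretches of 60 bases around an E2F word (in capitals) are printed for 8 of the 10 genes, because these promoters carry such a word. They come from RefSeq on GRCr8 and run 5′ to 3′ along the strand of the gene.
Mcm2, chr4:122918095-122918154, minus strand: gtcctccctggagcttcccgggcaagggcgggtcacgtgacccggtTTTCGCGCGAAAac
Mcm5, chr19:13488753-13488812, plus strand: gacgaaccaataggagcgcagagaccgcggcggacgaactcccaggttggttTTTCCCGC
Mcm6, chr13:42404454-42404513, minus strand: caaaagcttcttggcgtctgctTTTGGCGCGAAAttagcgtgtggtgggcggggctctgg
Mcm7, chr12:22163197-22163256, minus strand: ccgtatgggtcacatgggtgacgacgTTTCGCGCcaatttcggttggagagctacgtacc
Pola1, chrX:62342494-62342553, minus strand: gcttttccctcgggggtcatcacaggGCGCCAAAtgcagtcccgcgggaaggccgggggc
Tyms, chr9:120776087-120776146, minus strand: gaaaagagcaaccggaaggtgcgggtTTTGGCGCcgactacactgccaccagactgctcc
Chek1, chr8:44629844-44629903, minus strand: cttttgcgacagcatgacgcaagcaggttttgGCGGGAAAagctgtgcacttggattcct
Slbp, chr14:81295998-81296057, plus strand: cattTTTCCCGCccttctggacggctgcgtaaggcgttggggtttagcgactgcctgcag

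Of the 39 genes, 2 passed the test against control on the deposited values, and both encode primase. Prim1, the catalytic primase subunit, rose at 50 µM and at 100 µM. Prim2, the large primase subunit that binds the primer, rose at 100 µM. Differences were tested with limma across all 22093 genes, and calls were made below 0.05 after Benjamini-Hochberg adjustment. An unadjusted p under 0.05 was reached by 6 of the 39 genes at T10, 6 at T50 and 4 at T100, beside 2778, 2325 and 2733 of all 22093 genes. After adjustment 0 of the 39 genes were called at T10 (0.869% of all genes called), 1 at T50 (1.31%) and 2 at T100 (1.46%). Among the 4581 genes above background in at least 1 group the shares were 2.6% at T10, 3.97% at T50 and 4.67% at T100. The same calls are 3.57% of the 28 listed genes above background at T50 and 7.14% at T100, near the shares among all genes above background. In RNA from whole cultures, fewer cells in S phase and less RNA per cell cannot be told apart, nor can more of either.

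Prim1 had deposited values of 10.02, 9.92 and 10.06 in control, 9.97, 9.99 and 10.21 in T10, 10.27, 10.31 and 10.37 in T50, and 10.41, 10.41 and 10.37 in T100. All arrays of T50 and T100 lay above all control arrays, and T10 overlapped control. The difference from control was 0.32 ± 0.06 (SE, n = 3 per group; 1.24-fold; adjusted p = 0.0441 by limma) at T50 and 0.40 ± 0.06 (1.32-fold; adjusted p = 0.016) at T100. At T10 it was 0.06 (adjusted p = 0.754). In the F test over the 4 groups Prim1 was the 1 gene of 39 called (adjusted p = 0.0138), against 3.8% of all genes and 12.6% of those above background. T100 was higher than T10 by 0.34 (adjusted p = 0.0236), which was 0.11 after quantile normalization (adjusted p = 0.69) and 0.14 after centring on genes above background (adjusted p = 0.107). On the deposited values T50 and T100 differed by 0.08 (adjusted p = 0.712).

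Prim2 had values of 7.37, 7.28 and 7.57 in control, 7.52, 7.86 and 7.49 in T10, 7.48, 7.66 and 7.66 in T50, and 7.93, 7.87 and 7.99 in T100. The T100 arrays lay above all others, and T10 and T50 overlapped control. The difference at T100 was 0.52 ± 0.11 (SE, n = 3 per group; 1.44-fold; adjusted p = 0.0461 by limma). At T10 it was 0.22 (adjusted p = 0.44) and at T50 0.20 (adjusted p = 0.575). After quantile normalization the T10 arrays (7.73, 7.94 and 7.58) lay at or above the highest control array (7.36, 7.25 and 7.58), by 0.36 on average (adjusted p = 0.149), and the T50 difference was 0.20 (adjusted p = 0.466).

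The primase calls did not hold in every fit that left out 1 array. Prim1 at T100 was called in 8 of the 12 fits that left out 1 array, and it was not called without control replicate 1 (adjusted p = 0.0548), control replicate 2 (0.0727), T100 replicate 1 (0.0585) or T100 replicate 2 (0.0505). Its difference in those 4 fits was 0.41, 0.36, 0.39 and 0.39. Prim1 at T50 was called only without T10 replicate 1 or T10 replicate 3, and its adjusted p was highest, at 0.158, without control replicate 2. Prim2 at T100 was called only without T10 replicate 2, and its adjusted p was again highest, at 0.16, without control replicate 2. The call of Prim1 for T100 against T10 was lost without T10 replicate 1 (0.0805) or T100 replicate 1 (0.0667), 2 (0.0536) or 3 (0.0652). After quantile normalization Prim1 at T50 kept its call (0.42, adjusted p = 0.0318), while at T100 neither gene passed: Prim1 differed by 0.33 (adjusted p = 0.0755) and Prim2 by 0.42 (adjusted p = 0.0555). Over the 8 other settings that kept all arrays, quantile normalization included, Prim1 was called in 3 at T50 and in 7 at T100. Prim2 at T100 was called in 4 of the 8. The summed level of the stellate and fibroblast markers, which the brightest of them dominate, was 12.03 to 12.22 in control, 11.02 to 12.21 in T10, 11.49 to 12.28 in T50 and 13.63 to 14.4 in T100 (log2 of the summed linear values). At T100, 5 of the 10 markers were higher and 5 lower than control, with differences from -0.2 to 2.36. Their median difference was -0.01, which includes the markers below background, and their mean difference was 0.7. Of the 10, 4 lay above all control arrays and 1 below (10.7% and 7.39% of all genes). Of the 10, 2 were called higher at T100 (1.46% of all genes called) and 1 lower at T10 (0.869%). The summed level of the endothelial markers, of which only Tek was above background, ran from 7.36 to 7.45 in control, 7.04 to 7.15 in T10, 7.47 to 7.62 in T50 and 7.12 to 7.24 in T100. Their median difference from control was -0.01 at T10, -0.03 at T50 and -0.01 at T100. The part of these markers in the primase result was not tested. T100 also had the highest 95th percentile, and with that percentile as a covariate Prim1 differed by 0.41 at T100 (adjusted p = 0.0494) and 0.32 at T50 (adjusted p = 0.0533), and Prim2 by 0.46 at T100 (adjusted p = 0.17).

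The promoters of the 2 primase genes hold no E2F word and no CCAAT in the 250 bases searched. The 150 bases before the start of each are given because these 2 genes carry the calls against control on the deposited values.
Prim1, chr7:1031312-1031461, plus strand: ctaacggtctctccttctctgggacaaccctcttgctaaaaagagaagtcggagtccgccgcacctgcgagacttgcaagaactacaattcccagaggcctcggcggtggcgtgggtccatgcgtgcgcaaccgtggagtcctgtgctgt
Prim2, chr9:43400455-43400604, minus strand: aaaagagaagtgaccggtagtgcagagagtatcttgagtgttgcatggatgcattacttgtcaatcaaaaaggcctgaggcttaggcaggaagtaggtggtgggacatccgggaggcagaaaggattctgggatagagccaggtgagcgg

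The primase partner Pola1, the catalytic subunit of polymerase alpha, had group means of 7.12, 6.98, 7.19 and 7.16 in control, T10, T50 and T100 and was called at no dose. Pole, the catalytic subunit of the leading-strand polymerase, ranged from 6.67 (T10) to 6.85 (control). Pold1, the catalytic subunit of the lagging-strand polymerase, ranged from 5.48 (T10) to 5.67 (T50), near background.

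**Figure D2:**
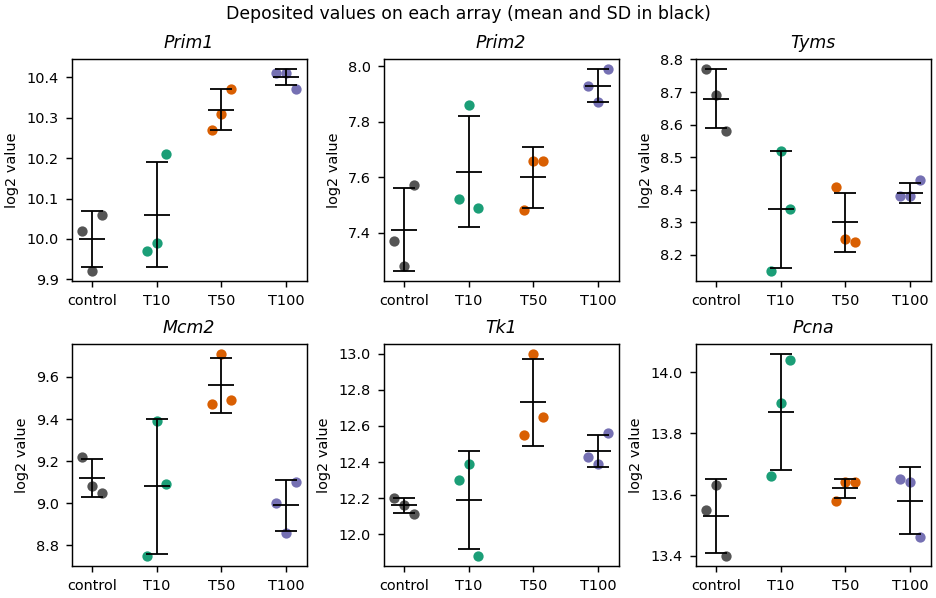
Deposited log2 value of Prim1, Prim2, Tyms, Mcm2, Tk1 and Pcna on each of the 12 arrays (points), with group mean and SD (black). Prim1 and Prim2 are highest in T100, Mcm2 and Tk1 in T50 and Pcna in T10, and Tyms is highest in control.

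The 6 MCM helicase genes, Mcm2 to Mcm7, which encode the ring that unwinds DNA at the fork, were all above background in every group. Against control 0 of 6 were called, beside 0.869% (T10), 1.31% (T50) and 1.46% (T100) of all genes. The median difference of the 6 was -0.08 at T10, -0.02 at T50 and -0.03 at T100, and 0.13, 0.12 and -0.05 after quantile normalization. Mcm2 had the widest range of group means (0.57), and its values were 9.22, 9.08 and 9.05 in control, 8.75, 9.39 and 9.09 in T10, 9.47, 9.71 and 9.49 in T50, and 9, 8.86 and 9.1 in T100. T50 lay above control on every array and T100 below T50 on every array, while T10 overlapped control. The difference was 0.44 ± 0.14 (SE, n = 3 per group; adjusted p = 0.241 by limma) at T50, and -0.57 (adjusted p = 0.112) for T100 against T50. After quantile normalization it was 0.50 at T50 (adjusted p = 0.0546), and T100 was lower than T50 by 0.70 (adjusted p = 0.0135), the 1 gene of 39 called there, against 1.62% of all genes. Mcm4 was the steadiest of the 6, with group means between 11.41 and 11.44. Mcm3 was between 11.05 (T10) and 11.39, Mcm5 between 9.75 and 9.92, Mcm6 between 10.72 and 10.81, and Mcm7 between 10.55 and 10.66.

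Of the 4 licensing genes, only Cdc6 was above background, and its values ranged from 6.3 to 6.96 with group means between 6.54 (T100) and 6.77 (T50). Orc1, Orc6 and Cdt1 lay between 4.57 and 5.47 on the 12 arrays, below background in every group. Of the 5 genes of helicase activation, only Mcm10, which helps the helicase fire, was above background, with group means between 6.23 and 6.36. Cdc45, Gins1, Gins2 and Gins3 lay between 4.19 and 5.47. Of these 9 genes, 0 were called against control by limma on either scale. The shares of all genes called at T10, T50 and T100 were 0.869%, 1.31% and 1.46% on the deposited values. After quantile normalization they were 1.09%, 2.07% and 2.36%.

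Pcna, the sliding clamp that holds polymerases on DNA, had deposited values of 13.55, 13.63 and 13.4 in control, 13.66, 13.9 and 14.04 in T10, 13.58, 13.64 and 13.64 in T50, and 13.65, 13.64 and 13.46 in T100. The 3 T10 arrays lay just above all control arrays, and T50 and T100 overlapped control. The difference at T10 was 0.34 ± 0.09 (SE, n = 3 per group; adjusted p = 0.166 by limma). After quantile normalization its difference at T10 was 0.65 ± 0.08 (adjusted p = 0.00256, 1.57-fold), at T50 0.37 (adjusted p = 0.0364) and at T100 0.24 (adjusted p = 0.185), and it was the 1 gene of 39 called at T10 against 1.09% of all genes. The quantile step lowered the control mean of Pcna from 13.53 to 13.34 and raised its T10 mean from 13.87 to 14. Of the 511 genes with a mean over 12, 368 hold 1 value on at least 3 arrays in the deposited table, and Pcna has 11 distinct values on 12 arrays. Rfc2, a subunit of the clamp loader, had group means between 6.81 and 6.9. Rfc3, Rfc4 and Rfc5 lay close to or below background.

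Of the lagging-strand and single-strand binding genes, Lig1, the ligase that joins Okazaki fragments, had deposited values of 9.66, 9.61 and 9.46 in control and 9.4, 9.42 and 9.24 in T10. All T10 arrays lay below all control arrays, and the difference was -0.22 (adjusted p = 0.261). After quantile normalization T10 overlapped control and the difference was -0.04 (adjusted p = 0.937). Rpa1 and Rpa2, subunits of the single-strand binding protein, had group means between 7.09 and 7.22 and between 5.96 and 6.11. Fen1 and Rpa3 were below background throughout.

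Of the 4 nucleotide supply genes, 0 were called against control on the deposited values, beside 0.869% (T10), 1.31% (T50) and 1.46% (T100) of all genes. Tyms, thymidylate synthase, had deposited values of 8.77, 8.69 and 8.58 in control, 8.15, 8.52 and 8.34 in T10, 8.41, 8.25 and 8.24 in T50, and 8.38, 8.38 and 8.43 in T100. All 9 exposed arrays lay below all control arrays. The difference was -0.34 (adjusted p = 0.127) at T10, -0.38 (0.0826) at T50 and -0.28 (0.177) at T100, by limma. After quantile normalization Tyms was lower at T50 by 0.35 (adjusted p = 0.0198) and at T100 by 0.36 (adjusted p = 0.0162), where it was the 1 gene of 39 called against 2.36% of all genes, and by 0.15 at T10 (adjusted p = 0.377).

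Tk1, the thymidine kinase of the salvage pathway, had values of 12.2, 12.16 and 12.11 in control, 12.3, 12.39 and 11.88 in T10, 12.55, 13 and 12.65 in T50, and 12.43, 12.39 and 12.56 in T100. T50 and T100 lay above all control arrays and T10 overlapped them. The difference was 0.58 (adjusted p = 0.0999) at T50 and 0.31 (adjusted p = 0.415) at T100. After quantile normalization it was 0.80 at T50 (adjusted p = 0.0487), 1 of the 4 genes called there (10.3% of the 39 against 2.07% of all genes), with Prim1, Pcna and Tyms. Those 4 are 14.3% of the 28 listed genes above background, against 7.03% of all genes above background. Rrm1, the large subunit of ribonucleotide reductase, held the deposited value 16.72 on 11 of 12 arrays, so these values cannot show a difference. After quantile normalization its means were 16.31 in control and 16.81, 16.88 and 16.9 in T10, T50 and T100, a shift that comes from the rescaling of a repeated value (adjusted p between 0.0587 and 0.153). Rrm2, its small subunit, had group means between 13.87 and 14.09 (T100), and 13.94 was repeated on several arrays.

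The 5 genes of G1/S control showed no call on the deposited values or after quantile normalization. Against control, 0.869% (T10), 1.31% (T50) and 1.46% (T100) of all genes were called on the deposited values. After quantile normalization the shares were 1.09%, 2.07% and 2.36%. Ccne1, a cyclin E that activates CDK2, had deposited values of 6.55, 6.53 and 6.56 in control, 6.38, 6.43 and 6.45 in T10, 6.49, 6.56 and 6.46 in T50, and 6.55, 6.68 and 6.51 in T100. T10 lay below all control arrays (difference -0.13, adjusted p = 0.257), but overlapped them after quantile normalization (difference -0.01, adjusted p = 0.975). E2f1 was below background, with values of 4.67, 4.54 and 4.53 in control, 4.53, 4.51 and 4.57 in T10, 4.71, 4.62 and 4.61 in T50, and 4.57, 4.42 and 4.59 in T100, each exposure overlapping control. Ccne2 had group means between 6.64 and 6.74, Chek1, a checkpoint kinase, between 5.93 and 6.14, and Slbp, which binds histone mRNA stem loops, between 6.63 (T10) and 6.79 (T50).

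**Figure D3:**
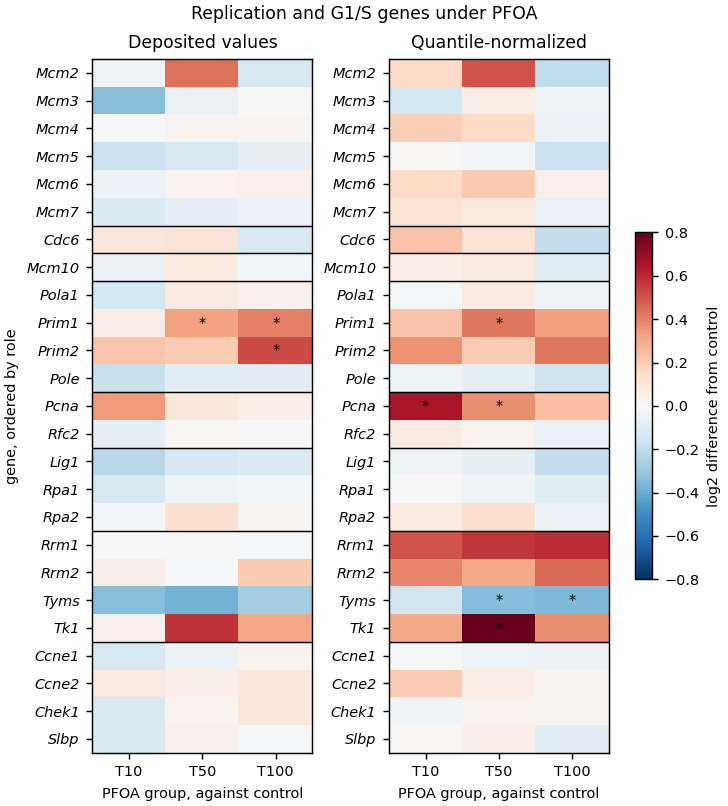
Log2 difference from control for the 25 genes above background in all 4 groups, in T10, T50 and T100 (columns), on the deposited values (left) and after quantile normalization (right). Rows follow the role of the gene, an asterisk marks an adjusted p under 0.05, and red is higher and blue lower than control.

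Over the 39 genes the differences were small. On the deposited values 10 were higher and 28 lower at T10, 27 and 11 at T50, and 21 and 18 at T100. The median difference was -0.05 at T10, 0.04 at T50 and 0.02 at T100, beside medians of all genes of -0.004, 0.005 and 0.003. Genes above background in at least 1 group had medians of -0.09, 0 and 0.05, and the 28 listed genes among them -0.07, 0.03 and 0.01. After quantile normalization 25 of the 39 were higher and 14 lower at T10, 30 and 9 at T50, and 17 and 22 at T100. The median of the 39 turned sign at T10 (0.04) and T100 (-0.05). All genes above background then had medians of 0.05 at T10, 0.05 at T50 and 0 at T100, so they also turned sign at T10. The 95% interval of every one of the 39 differences lay within 2-fold in each comparison on the deposited values, and within 1.5-fold for 38 at T10, 37 at T50 and 37 at T100. After quantile normalization all intervals again lay within 2-fold, except 1 at T50, that of Tk1.

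**Figure D4:**
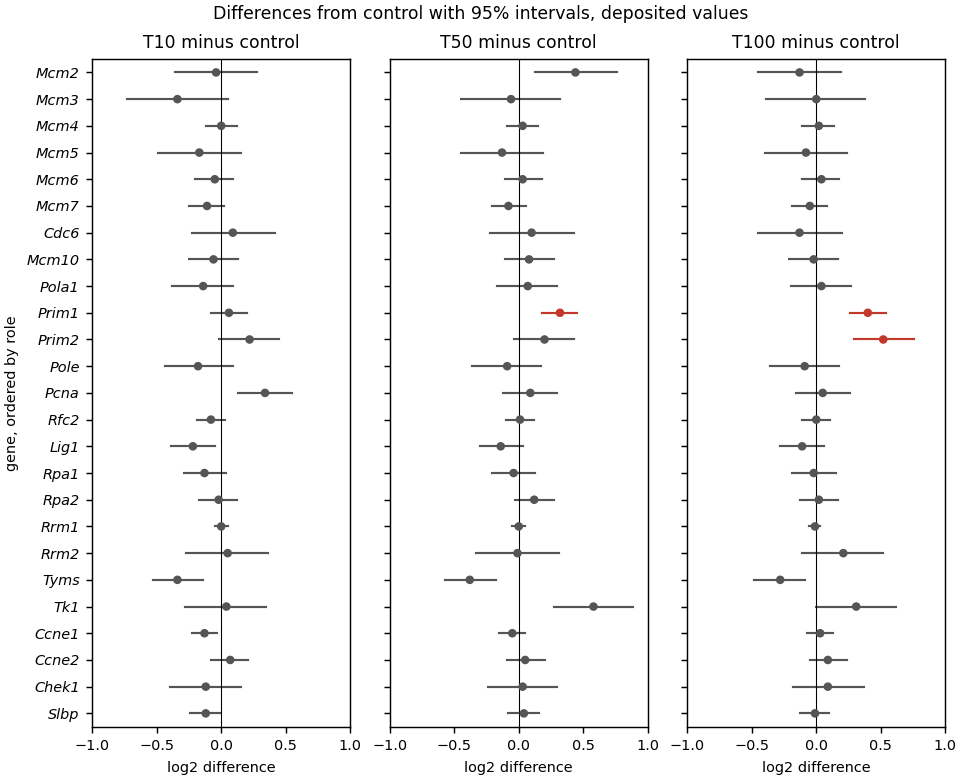
Deposited log2 difference from control (points) with 95% intervals (lines) for each of the 25 genes above background in all 4 groups, at T10, T50 and T100. The red intervals are those of Prim1 at T50 and of Prim1 and Prim2 at T100, the calls at an adjusted p under 0.05.

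A looser count takes the genes whose groups did not overlap. At T10, 1 of the 39 genes lay above all control arrays and 6 below, against 6.32% and 10.6% of all genes. At T50 the numbers were 5 above and 1 below (9.75% and 7.29%), and at T100 6 above and 2 below (10.7% and 7.39%). After quantile normalization the direction at T10 turned, with 7 above and 1 below (8.12% and 8.44% of all genes). The numbers were then 7 and 1 at T50 (10.7% and 7.32%) and 5 and 6 at T100 (9.71% and 9.27%). Between exposures, an unadjusted p under 0.05 was reached by 11 of the 39 between T50 and T10, 6 between T100 and T10 and 3 between T100 and T50. The numbers over all 22093 genes were 3200, 4025 and 2429. After adjustment 0 of 39 were called between T50 and T10 (2.01% of all genes), 1 between T100 and T10 (Prim1, against 3.08%) and 0 between T100 and T50 (1.16%). Among all genes above background the shares called were 7.05%, 10.1% and 3.62%. After quantile normalization Pcna was the 1 gene called between T100 and T10, lower at T100 by 0.42 (adjusted p = 0.0292, with 1.58% of all genes called). Between T50 and T10, 0 were then called (1.15%), and 9 had an unadjusted p under 0.05, beside 2484 of all genes. The quantile F test called 3 of 39 (Mcm2, Pcna and Tyms), or 7.69%, against 3.85% of all genes. Of the 28 listed genes above background that is 10.7%, against 13.4% of all genes above background. The T50 values lay above T10 on every array for 11 genes and below for 1 (12.1% and 5.3% of all genes), and the T100 values above T10 for 8 and below for 1 (14.1% and 6.83%). T100 lay above T50 for 2, Prim1 and Prim2, and below for 3, Mcm2, Fen1 and E2f1 (7.78% and 8.05%). After quantile normalization T50 lay above T10 for 6 and below for 2 (9.02% and 5.95% of all genes). T100 then lay above T10 for 2 and below for 9 (8.99% and 7.73%), the opposite of the deposited values, and above T50 for 1 and below for 11 (6.59% and 9.82%).

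**Figure D5:**
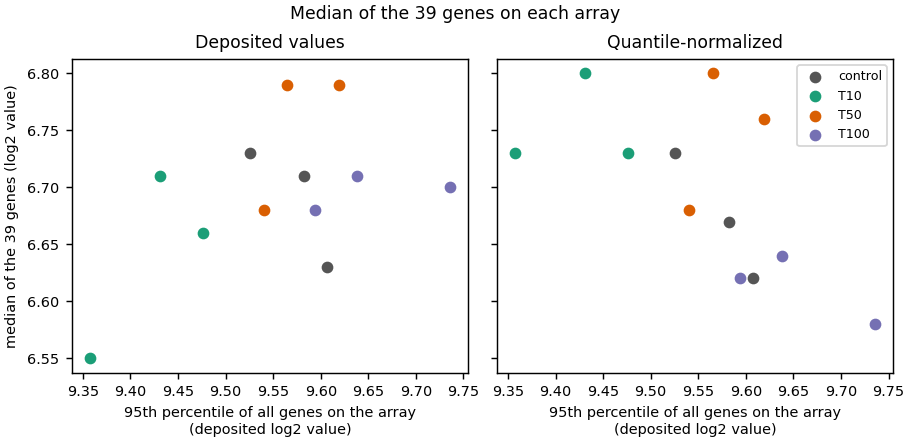
Median of the 39 genes on each array (y axis, log2 value) against the 95th percentile of all genes on the array (x axis, log2 value), on the deposited values (left) and after quantile normalization (right). T10 replicate 1 has the lowest median on the left (6.55) and the lowest 95th percentile, and the 3 T100 arrays move from the middle on the left to the lower end on the right.

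Further genes of the pathway were read from 3 other lists. Of 32 further replication genes 31 were measured, all but Dna2, and 15 were above background. Against control 1 was called at T10 (3.23% of the 31, against 0.869% of all genes), 2 at T50 (6.45% against 1.31%) and 0 at T100 (1.46% of all genes). At T100, 4 had an unadjusted p under 0.05, beside 2733 of all 22093 genes. After quantile normalization 0, 1 and 0 were called, against 1.09%, 2.07% and 2.36% of all genes. Of the 31, 5 passed the F test (16.1%, against 3.8% of all genes and 12.6% of those above background): Dbf4, Wdhd1, Pola2, Orc2 and Pold2. Dbf4, the regulatory subunit of the CDC7 kinase that fires origins, rose at T50 by 0.65 ± 0.08 (limma, SE, n = 3 per group; 1.57-fold; adjusted p = 0.00415), from 7.50, 7.60 and 7.60 in control to 8.26, 8.23 and 8.15. T100 was lower than T50 by 0.48 (adjusted p = 0.0176) (the call was lost without T50 replicate 1 or 2 or T100 replicate 1) and differed from control by 0.17 (adjusted p = 0.396), and the T50 difference was 0.66 after quantile normalization (adjusted p = 0.000157). The call for T50 against control held in all 8 other settings and all 12 fits without 1 array.

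Wdhd1, a replisome protein that ties polymerase alpha to the helicase, fell at T10 by 0.51 (adjusted p = 0.0276), and was lower by 0.31 after quantile normalization (adjusted p = 0.142). Pola2, the regulatory subunit of polymerase alpha, rose at T50 by 0.18 (adjusted p = 0.032), with 0.17 after quantile normalization (adjusted p = 0.0553). It was above background in 2 groups only, and its means of 5.49 in control and 5.67 in T50 lay near the limits of 5.42 and 5.52. Orc2, an origin recognition subunit, and Pold2, an accessory subunit of polymerase delta, were called between exposures. Both were higher at T50 than at T10, by 0.27 (adjusted p = 0.0365) and 0.49 (adjusted p = 0.0307). Both were also higher at T100 than at T10, by 0.27 (0.0312) and 0.44 (0.0372). Neither passed after quantile normalization (0.0951 and 0.0837 for T50, 0.302 and 0.293 for T100). Wdhd1, Pola2 and Dbf4 were also called for T50 against T10. Of the 31 genes, 6 were called there (19.4%, against 2.01% of all genes) and 4 for T100 against T10 (12.9% against 3.08%). After quantile normalization 1 was called in each (3.23%, against 1.15% and 1.58%). The T10 mean of Orc2, 5.65, lay below the background limit of 5.77. These calls did not hold in every fit without 1 array. Wdhd1 at T10 was called in 6 of the 12 and lost without any 1 control or T10 array. Its difference in the fits that lost the call ran from -0.45 to -0.56. Pola2 at T50 was called in 5 of 12, Pold2 for T50 against T10 in 5 and Orc2 in 3, with adjusted p up to 0.12, 0.109 and 0.126.

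Of 14 nucleotide supply and chromatin assembly genes measured, 2 passed the F test (14.3%, beside the same 3.8% and 12.6%): Nasp, a histone chaperone, and Usp1, a deubiquitinase that acts on PCNA and FANCD2. Nasp rose at T100 by 0.24 (adjusted p = 0.0226) and Usp1 by 0.36 (adjusted p = 0.0231) at T100 and 0.30 (adjusted p = 0.0475) at T50. After quantile normalization they differed by 0.17 (adjusted p = 0.136), 0.26 (0.161) and 0.33 (0.077). Without 1 array, Nasp at T100 was called in 7 of 12 fits, Usp1 at T100 in 7 and Usp1 at T50 in 3. Of the 20 G1/S regulators, limma called 0 against control at each dose (0.869%, 1.31% and 1.46% of all genes). An unadjusted p under 0.05 was reached by 1 (T10), 4 (T50) and 7 (T100) of them, beside 2778, 2325 and 2733 of all 22093 genes. The F test called 1 (5%, beside 3.8% and 12.6%): Tfdp2, a dimerization partner of E2F factors, below background in all groups (adjusted p = 0.0498).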

How the data were processed

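RNA of 12 samples was hybridised to Affymetrix rat arrays with the WT Plus kit, per the labels' protocols. The authors deposited log2 values, 1 per probe set and array. The log base was inferred from the range of 2.872 to 19.93, and the background correction, summarization and normalization are not given in the sources used here. Of 70580 probe sets, 23446 carried 1 symbol, 505 several and 44891 (controls aside) none. The brightest probe set per gene by the mean of the 12 arrays was kept, giving 22093 genes, of which dim ones stayed in the tests. Genome coordinates come only from the RefSeq promoters (GRCr8).

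Groups were compared in 1 fit of 4 group means to the 12 arrays (limma 3.58.1, run in R 4.3.3, lmFit then eBayes, prior df 1.71), two-sided, with Benjamini-Hochberg over all genes. Errors are standard errors of the fit, and precision is limited by having 3 arrays a group. The code was tested on simulated data. The alternatives tried were quantile normalization, centring on genes above background, a filter on dim genes, the mean of a gene's probe sets, a replicate block, fitting only the groups compared, another prior, the 95th percentile as a covariate, and leaving out each array. The 39 genes, the further lists and the tests were chosen with earlier results of these data known. All 39 genes could be named. From each further list, genes passing the F test were named, at most 6 a list by smallest p. Values on every array were given for Prim1 and Prim2, called on the deposited values, and for Pcna, Mcm2, Ccne1 and E2f1. Those of Tyms and Tk1, and those of Lig1 and Dbf4 in the groups shown, were added after their values were seen.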

Additional observations from a re-analysis of the deposited data

How the results depend on the processing

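The counts of called genes among the 39 depended on the processing. Fits that left out 1 array gave 0 to 1 calls at T10, 0 to 2 at T50, 0 to 2 at T100, 0 to 1 for T50 against T10, 0 to 2 for T100 against T10, 0 to 1 for T100 against T50 and 1 to 4 in the F test. In the same fits the median difference of the 39 genes ran from -0.07 to -0.02 at T10, 0.02 to 0.07 at T50, -0.01 to 0.03 at T100, 0.08 to 0.14 for T50 against T10, 0.05 to 0.12 for T100 against T10 and -0.03 to 0.02 for T100 against T50. Quantile normalization gave 1 call at T10 (1.09%), 4 at T50 (2.07%), 1 at T100 (2.36%), 1 for T100 against T50 (1.62%) and 3 in the F test (3.85%), with medians of 0.04 at T10, -0.05 at T100, -0.06 for T100 against T10 and -0.09 for T100 against T50. Centring each array on the genes above background in all 4 groups shifted the median of all genes by 0.115 at T10 and by -0.198 for T100 against T10. It gave 1 call at T10 (1.15% of all genes called), 2 at T50 (Tyms and Tk1, not Prim1, 1.78%), 1 for T50 against T10 (8.58%), 10 for T100 against T10 (59.8%), 1 for T100 against T50 (1.81%) and 8 in the F test (28.4%), with medians of 0.07 at T10, -0.07 at T100, -0.06 for T50 against T10 and -0.11 for T100 against T10. There Mcm4 and Mcm10 for T100 against T10 turned from 0.02 and 0.03 to -0.18 and -0.17. Testing only genes above background gave 3 calls at T50 (6.51% of genes tested), 2 for T50 against T10 (11.9%), 2 for T100 against T10 (21.4%) and 4 in the F test (21.8%). With the replicate number as a replicate block there were 0 calls at T50 (0.892%) and 1 at T100 (1.18%). The numbers did not pair the samples: of 18 same-numbered pairs 2 had deviations that correlated over 0.1 (range -0.219 to 0.112), and 4 of 12 arrays correlated best with their own number. Fitting only the groups compared gave 0 at T50 (0.498%), 1 at T100 (0.421%) and 0 for T100 against T10 (0.235%), and an intensity trend with a robust prior gave 0 at T50 (1.16%). With the 95th percentile as a covariate there were 2 calls at T50 (Mcm2 and Tyms, not Prim1, 1.75%), 1 at T100 (Prim1, 1.14%), 0 for T100 against T10 (0.0136%) and 1 for T100 against T50 (0.661%), with medians of 0.05 at T10, -0.02 for T50 against T10 and -0.07 for T100 against T10. The cause was not tested. Values repeated across arrays limit the brightest genes, and signal below background limits 11 of the 39.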
